A study of Mus musculus with 10 samples.

Results

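The 77 mitochondrial ribosomal protein genes of these tumors were the genes whose symbol is Mrpl or Mrps followed by a number and at most 1 letter, and whose mean over the tumors was at least 10 normalized counts. They were 77 of the 24202 gene symbols measured, 48 named for the large subunit (Mrpl) and 29 for the small subunit (Mrps). All 77 matching symbols passed the minimum mean. The lowest mean belonged to Mrps18c (427 normalized counts), so no gene lay just below the minimum. Pseudogenes with a hyphen in their symbol did not match; the most abundant of them, Mrpl48-ps, had a mean of 23.0.

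The tumors were grown from MB-49, a mouse bladder cancer cell line, in mice of the genotype labelled hLrrc32 knock-in. Lrrc32 encodes GARP, a surface protein that holds latent TGF-beta. Each mouse received 100000 MB-49 cells under the skin of the right flank, and whole tumors were taken on day 10, made into cell suspensions and sequenced in bulk. There were 5 tumors labelled PIIO-1, an antibody against GARP, and 5 labelled PBS. PIIO-1 was given into the peritoneum at 200 ug per mouse on days 6 and 9; the labels print the same protocol for the PBS tumors, and a schedule for PBS is not given in the sources used here. Strain background, age, sex and whether each tumor came from a separate mouse are likewise not given, so the p-values below measure the spread between these 10 samples. In bulk RNA from whole tumors, fewer cells of a type and less RNA per cell cannot be told apart.

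Mitochondria keep their own ribosome, which translates the mRNAs of the mitochondrial genome into core subunits of the respiratory chain and the ATP synthase. Its 2 rRNAs, mt-Rnr1 in the small subunit and mt-Rnr2 in the large subunit, are transcribed from mitochondrial DNA. All of its proteins are encoded in the nucleus, translated in the cytosol and imported, so nuclear and mitochondrial transcription both supply parts. The names do not follow the structure in every case. Mrps18a and Mrps30 sit in the large subunit, Mrps36 is now counted as a component of the 2-oxoglutarate dehydrogenase complex, and Dap3, Ptcd3, Chchd1, Aurkaip1 and Gadd45gip1 are mitochondrial ribosomal proteins under other names.

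The nuclear genes of mitochondrial translation are known for promoters with sites of NRF1, of ETS factors such as GABP, and of YY1. RefSeq promoters of GRCm38.p6, from 250 bases before to 50 bases after the start site, were at hand for 68 of the 77 genes, with 74 promoters in all; Mrpl4, Mrpl13, Mrpl15, Mrpl19, Mrpl38, Mrpl54, Mrps28, Mrps34 and Mrps35 had no entry. The promoters of 4 genes are printed up to 30 bases past the start site, 5′ to 3′ on the strand of the gene, with exact matches to the motifs in capitals. Mrpl52 is shown because it had the smallest p among the 77 genes, Mrpl17 and Mrpl33 because they followed the other genes from tumor to tumor most and least closely, and Mrps11 because it holds the third motif and faces Mrpl46 head to head. They lie at chr14:54426659-54426938 on the plus strand (Mrpl52), chr7:105811058-105811337 on the minus strand (Mrpl17), chr5:31613701-31613980 on the plus strand (Mrpl33) and chr7:78782881-78783160 on the plus strand (Mrps11).
Mrpl52: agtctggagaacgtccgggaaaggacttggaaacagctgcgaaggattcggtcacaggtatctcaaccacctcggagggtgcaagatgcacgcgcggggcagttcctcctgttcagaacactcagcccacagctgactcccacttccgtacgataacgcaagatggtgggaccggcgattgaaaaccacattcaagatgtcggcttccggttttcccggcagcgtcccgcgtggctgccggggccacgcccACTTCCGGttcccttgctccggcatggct
Mrpl17: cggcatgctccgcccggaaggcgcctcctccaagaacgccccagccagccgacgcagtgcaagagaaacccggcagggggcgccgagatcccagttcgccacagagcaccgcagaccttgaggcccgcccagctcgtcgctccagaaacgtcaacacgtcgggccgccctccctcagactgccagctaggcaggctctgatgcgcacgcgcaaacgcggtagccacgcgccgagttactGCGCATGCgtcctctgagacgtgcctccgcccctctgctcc
Mrpl33: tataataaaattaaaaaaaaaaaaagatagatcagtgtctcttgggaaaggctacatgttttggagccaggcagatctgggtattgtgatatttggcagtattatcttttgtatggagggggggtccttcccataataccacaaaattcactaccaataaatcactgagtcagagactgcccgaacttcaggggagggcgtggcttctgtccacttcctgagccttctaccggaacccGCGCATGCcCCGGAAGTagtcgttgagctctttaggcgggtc
Mrps11: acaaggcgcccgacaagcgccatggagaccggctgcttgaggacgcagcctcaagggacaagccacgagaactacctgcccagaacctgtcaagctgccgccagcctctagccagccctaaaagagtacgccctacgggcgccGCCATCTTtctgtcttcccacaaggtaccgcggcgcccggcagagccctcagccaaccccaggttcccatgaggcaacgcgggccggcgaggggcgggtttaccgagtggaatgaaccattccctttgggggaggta
Mrpl52 held an ETS/GABP match on the reverse strand that began 1 base after the start site. Mrpl17 held an NRF1 match ending just before its start, Mrpl33 an NRF1 match followed 1 base later by an ETS/GABP match, and Mrps11 a YY1 match on the reverse strand. Each motif was searched as 8 letters on both strands. The NRF1 motif GCGCATGC occurred in 10.8% of the 74 promoters, in 4.62% of the 14452 promoters at hand for tested genes and in 2.71% of all 32851 promoters. The ETS/GABP motif CCGGAAGT occurred in 16.2%, 7.33% and 3.89%, and the YY1 motif AAGATGGC in 16.2%, 4.04% and 2.75%, of the same sets. At least 1 of the motifs stood in 29 of the 68 genes (42.6%), and Mrpl32, Mrpl33 and Mrps27 held more than 1. A match describes the letters in this window and does not show that a factor binds there. The median log2 difference, PIIO-1 minus PBS, was -0.0061 with and -0.017 without an NRF1 match, -0.011 and -0.018 for ETS/GABP, and -0.015 and -0.014 for YY1.

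Sequencing depth, as whole reads assigned to genes, was lowest in PBS tumor 4 (18843192) and highest in PBS tumor 3 (37581521), and each of the 77 genes had at least 270.0 reads in every tumor. Reads of the 77 genes made up 0.267% ± 0.0082 (SD, n = 5) of all reads in PBS tumors and 0.259% ± 0.012 (SD, n = 5) in PIIO-1 tumors. Krt8 and Krt18, keratins of simple epithelium, were abundant in every tumor (Krt8 at least 50275 normalized counts), while the urothelial markers Upk2, Upk3a and Krt20 had means under 10. PIIO-1 tumor 5 stood apart: it had the highest sum of the 5 red blood cell markers (58643, against 5488 to 12848 in PBS tumors), the highest sum of the 9 dissociation stress genes (183492, against 85888 to 120089) and the highest share of mitochondrially encoded reads (3.12%, against 0.986% to 2.22%). In the comparison of the groups, 5 of 5 red blood cell markers, 2 of 4 platelet markers and 6 of 9 stress genes were higher in PIIO-1 tumors at an unadjusted p under 0.05 (limma), and 0 of 7 cell cycle genes passed in either direction. Of all tested genes, 2.86% were higher at that threshold, and no marker passed an adjusted p under 0.05 in limma. Summed red blood cell markers ran from 8372 to 58643 in PIIO-1 tumors, platelet markers from 2736 to 5160 against 1732 to 3278 in PBS tumors, and stress genes from 104568 to 183492; none of these genes was at 0 in any tumor. All 6 neutrophil markers had differences above 0 (median 0.46), with Mmp8 under an unadjusted p of 0.05 in limma, and their sums ran from 13029.6 to 27082 in PBS and from 15666 to 37517 in PIIO-1 tumors. In the other marker lists, Itgam (myeloid cells, 0.35), Krt14 (keratinocytes, 0.41) and Cdh1 (epithelium, 0.72) were higher at an unadjusted p under 0.05 in limma. No marker was lower at that threshold. Within their lists, 6 of 9 leukocyte, 1 of 2 tested keratinocyte and 4 of 6 tested epithelial markers had differences above 0. Krt5 (-0.21), Upk1b (-0.37) and Epcam (-0.45) lay below 0. The part of the markers in the results below was not tested, and several results are also given without PIIO-1 tumor 5.

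The first comparison asked whether PIIO-1 and PBS tumors differed in the RNA of these genes. None of the 77 passed an adjusted p under 0.05 in limma, and none of all 16767 tested genes did (0.0% called); the smallest adjusted p was 0.837. At an unadjusted p under 0.05, 6 of the 77 passed (7.79%), where 5.63% of all tested genes did. Of these, Mrpl52 and Mrps21 were higher in PIIO-1 tumors (background 2.86%), and Mrps34, Mrps10, Mrpl44 and Mrpl58 were lower (background 2.77%). edgeR on the recovered reads called 0 genes after adjustment and 6 of the 77 at an unadjusted p under 0.05 (background 5.81%). DESeq2 called 3 of all genes after adjustment (0.0179%), none of them among the 77, and 6 of the 77 at an unadjusted p (background 6.04%). These shares lay near the background. The 6 genes were not the same each time: Mrps21 was not under 0.05 in edgeR, and Mrpl58 was not in DESeq2. Without PIIO-1 tumor 5, Mrpl52, Mrps34 and Mrps10 were the 3 left under 0.05, where 3.73% of all genes were.

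**Figure D1:**
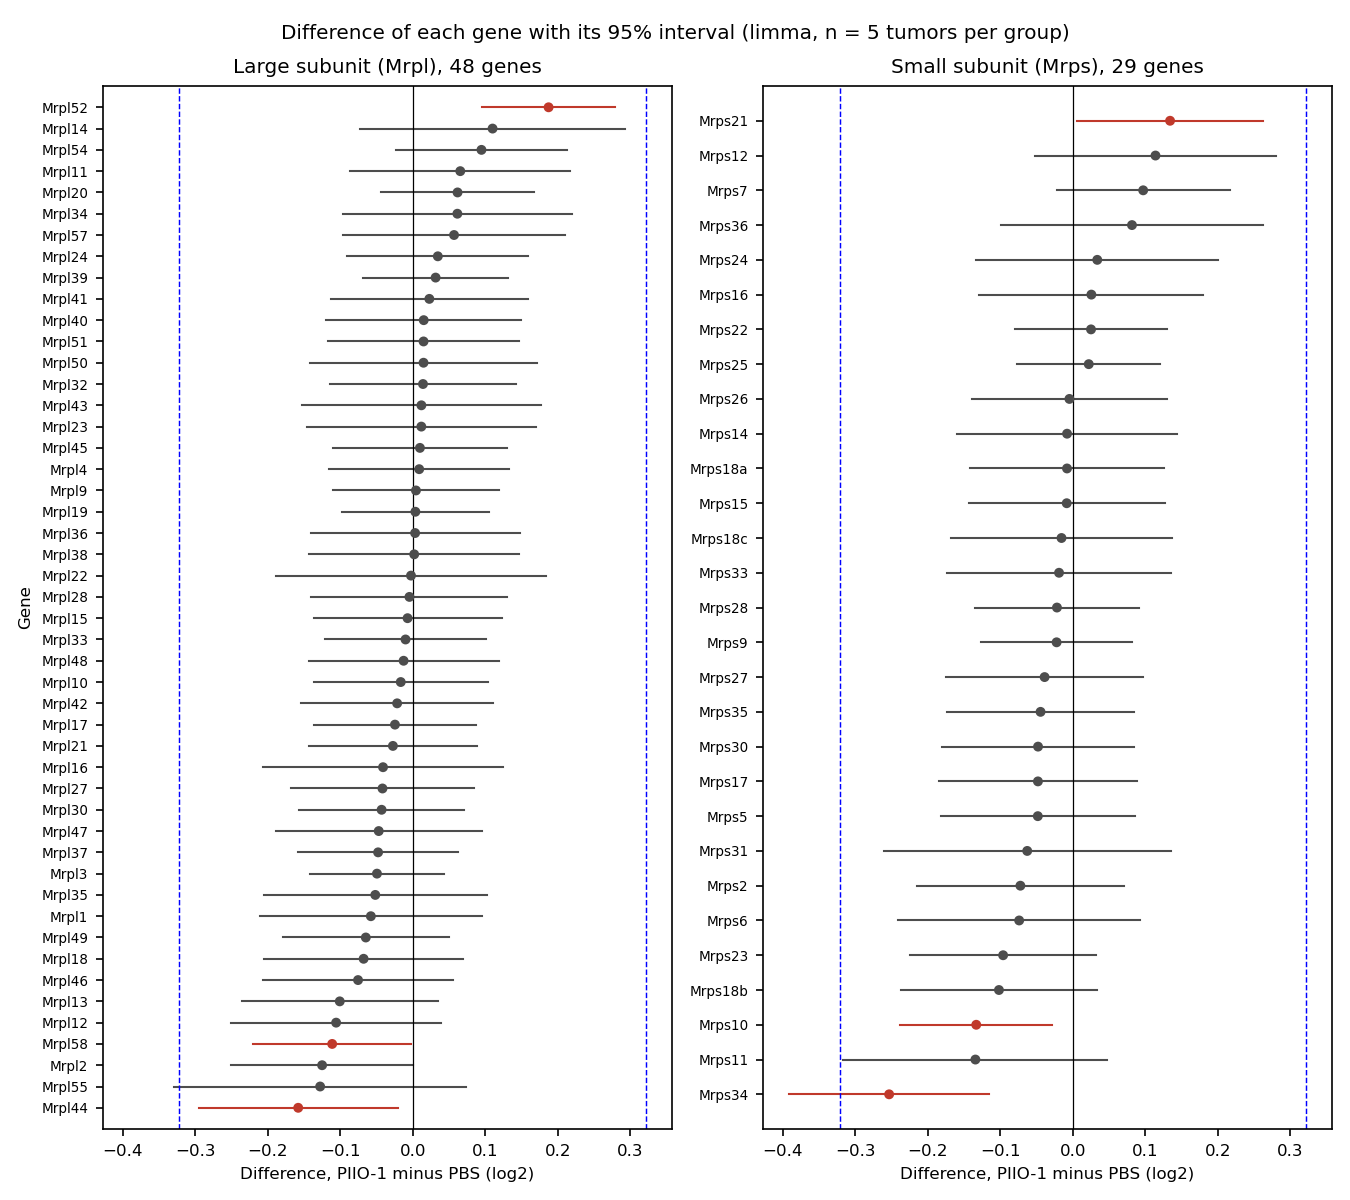
Log2 difference, PIIO-1 minus PBS, of each of the 48 Mrpl and 29 Mrps genes (points) with its 95% interval from limma (lines, n = 5 tumors per group). Dashed lines mark a 1.25-fold change either way and red marks the 6 genes with an unadjusted p under 0.05. The points run from -0.25 (Mrps34) to 0.19 (Mrpl52), and 75 of the 77 intervals lie between the dashed lines.

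The differences were small. The median log2 difference over the 77 genes was -0.013, within a range of -0.25 to 0.19, and the median over all tested genes was 0.0027. The 48 Mrpl genes had a median of -0.0058 with 22 above 0, and the 29 Mrps genes a median of -0.022 with 8 above 0. In all, 30 of the 77 differences lay above 0 (39.0%), against 51.1% of all tested genes; under TMM scaling these were 26 (33.8%) and 48.4%. Leaving out PBS tumor 1 turned the median of the 77 to 0.0021, and leaving out PBS tumor 4 made it -0.032, so the sign of the median rested on PBS tumor 1.

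The intervals of these differences were narrow. For 75 of the 77 genes (97.4%) the 95% interval of the difference lay within 1.25-fold either way. The same held for 49.3% of all tested genes and for 79.4% of the 6668 genes with means in the same range. This count was chosen after the data were seen. Mrps34 (-0.39 to -0.12) and Mrpl55 (-0.33 to 0.07) were the 2 exceptions. The median standard error of a difference was 0.062 for the 77 genes, 0.069 for genes in the same range of means and 0.104 for all tested genes. Within a group the median SD was 0.088 on the log2 scale for the 77 genes, 0.108 for genes in the same range of means and 0.168 for all. The median ratio of a gene's highest to its lowest tumor was 1.23-fold, from 1.07-fold for Mrps22 to 1.45-fold for Mrpl55.

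Among the large subunit proteins, Mrpl52 stood first. Mrpl52 (ENSMUSG00000010406.12, chr14:54426909-54429756 on GRCm38, plus strand, 1109 bp of exon) encodes a protein of the large subunit that bacterial ribosomes lack. Its normalized counts in PBS tumors 1 to 5 were 2316, 2179, 2254, 2208 and 2292. In PIIO-1 tumors 1 to 5 they were 2444, 2698, 2621, 2581 and 2472. Every PIIO-1 tumor was above every PBS tumor. The group means were 2249.8 ± 57.0 and 2563 ± 105 (SD, n = 5 each), a 1.14-fold difference (log2 0.19, SE 0.042, 95% interval 0.096 to 0.28). Its p was 0.000809 unadjusted and 0.837 adjusted over all genes in limma, and 0.119 adjusted in DESeq2. Mrpl52 had been singled out from these same data before, so its rank among the 77 is a description.

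Mrpl44 is a large subunit protein with an RNase III-like fold. Its normalized counts in PBS tumors 1 to 5 were 623, 661, 588, 643 and 607, and in PIIO-1 tumors 625, 528, 563, 546 and 538. PIIO-1 tumor 1 lay inside the PBS range and the other 4 PIIO-1 tumors below it. The log2 difference was -0.16 (SE 0.063, unadjusted p 0.0275 and adjusted p 0.837 in limma). Mrpl58, also known as ICT1, is a peptidyl-tRNA hydrolase that frees stalled mitochondrial ribosomes. PBS tumors had 927, 883, 862, 918 and 929 normalized counts of Mrpl58, and PIIO-1 tumors 819.7, 882, 849, 784 and 849. Only PIIO-1 tumor 2 reached into the PBS range. Its difference was -0.11 (SE 0.050, unadjusted p 0.0463 in limma), and its p was under the threshold in 8 of the 20 alternative analyses.

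The remaining large subunit genes had unadjusted p-values above 0.05. On the lower side, the closest to it was Mrpl2 (-0.13, p 0.0511 in limma), a protein near the peptidyl transferase center, followed by Mrpl13 (-0.10) and Mrpl12 (-0.11). Mrpl12 forms part of the stalk that receives translation factors and also binds the mitochondrial RNA polymerase. On the higher side were Mrpl54 (0.095), Mrpl14 (0.11), Mrpl20 (0.062), Mrpl11 (0.066) and Mrpl34 (0.062). Mrpl11 lies at the base of the stalk, and Mrpl14 is the protein that the assembly factor Malsu1 binds. Mrpl13 had the highest mean of the 77 genes, at 3008 ± 276 (SD, n = 5) normalized counts in PBS tumors and 2797 ± 103 (SD, n = 5) in PIIO-1 tumors. Its high PBS mean came from PBS tumors 1 and 2, at 3304 and 3289, while the other 8 tumors lay between 2667 and 2945.

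Among the small subunit proteins, Mrps34 had the smallest p. Mrps34 (ENSMUSG00000038880.13, chr17:24895116-24897502, plus strand) encodes a protein found in mitochondrial but not in bacterial ribosomes, and its loss destabilizes the small subunit. Its normalized counts in PBS tumors 1 to 5 were 859.7, 799, 753, 688 and 767. In PIIO-1 tumors 1 to 5 they were 633, 665, 626, 669 and 642. No PIIO-1 tumor reached the lowest PBS tumor, PBS tumor 4. The means were 773 ± 62.9 and 647 ± 19.3 (SD, n = 5 each), a log2 difference of -0.25 (SE 0.063, 95% interval -0.39 to -0.12). The unadjusted p was 0.00185 and the adjusted p 0.837 in limma, and the adjusted p in DESeq2 was 0.190. Mrps34, too, had been singled out from these data before.

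The exons of Mrps34 overlap those of its neighbors. Of its 2064 exon bases, 1309 (63.4%) also belong to exons of Mapk8ip3 on the opposite strand and 763 (37.0%) to exons of Nme3 on the same strand, so that 77.8% are shared in all. The strand setting of the counting is not given in the sources used here, and Nme3 was not analysed here. Whether reads of these genes entered the count of Mrps34 was not tested. Mapk8ip3, a scaffold protein of JNK signaling and axonal transport, had means of 5930.0 ± 558 (PBS) and 6574 ± 723 (PIIO-1) normalized counts (SD, n = 5 each). Its log2 difference was 0.15 (SE 0.085, unadjusted p 0.110 in limma), of the opposite sign to that of Mrps34. Sharing of exons was common: 32 of the 77 genes shared exon bases with another gene, 9 of them over 20% of theirs. The 32 had a median difference of -0.033 and the 45 others -0.0071.

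Mrps10, the small subunit protein named after bacterial S10, had 1334, 1370.3, 1258, 1315 and 1305 normalized counts in PBS tumors 1 to 5 and 1264, 1126, 1256, 1182 and 1175 in PIIO-1 tumors. PIIO-1 tumor 1 lay inside the PBS range and the other 4 PIIO-1 tumors below it. The log2 difference was -0.13 (SE 0.048, unadjusted p 0.0169 and adjusted p 0.837 in limma). Mrps21, the counterpart of bacterial S21, had 723, 662, 652, 652 and 687 normalized counts in PBS tumors and 689, 793, 719, 723 and 786 in PIIO-1 tumors. The groups overlapped through PBS tumor 1. Its difference was 0.13 (SE 0.059, unadjusted p 0.0418 in limma).

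**Figure D2:**
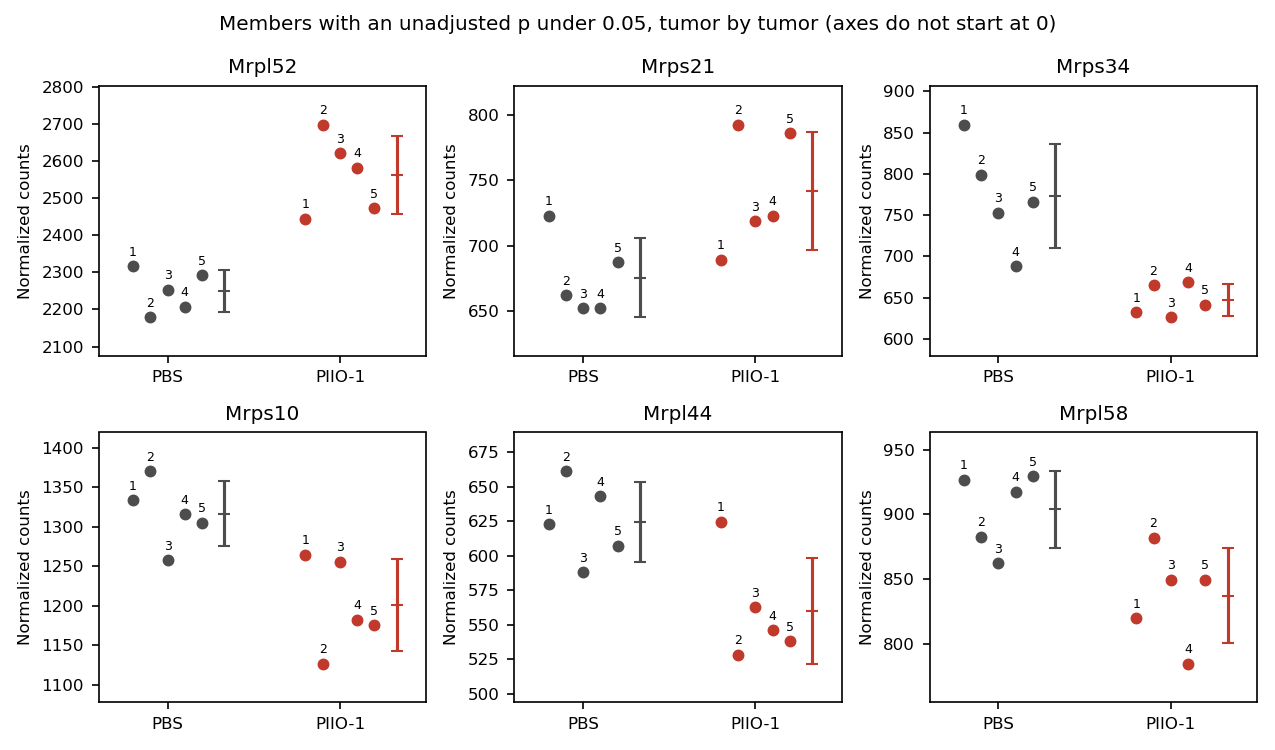
Normalized counts in each tumor (numbered points) of the 6 genes with an unadjusted p under 0.05, PBS in gray and PIIO-1 in red, with the group mean and SD beside them (n = 5 each); the axes do not start at 0. The 2 groups do not overlap for Mrpl52 and Mrps34, and overlap by 1 or more tumors for the other 4 genes.

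The other small subunit genes did not pass. Mrps7 (0.097), Mrps12 (0.11) and Mrps36 (0.082) were next on the higher side, and Mrps18b (-0.10), Mrps23 (-0.096) and Mrps11 (-0.13) on the lower. Mrps12 forms part of the decoding site. Its difference came in part from 1 tumor. PIIO-1 tumor 3 had 1077 normalized counts of Mrps12 while the other 9 tumors lay between 798 and 945, and without that tumor the difference was 0.056. For Mrps11 the low tumor was PIIO-1 tumor 5, at 387 against 449 to 547 in the others, and without it the difference was -0.070. The 3 relatives of bacterial S18 had differences of -0.0080 (Mrps18a), -0.10 (Mrps18b) and -0.016 (Mrps18c).

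Counted by rank alone, Mrpl52 and Mrps34 were the 2 genes of the 77 whose groups did not overlap (2.60%), where 0.853% of all tested genes did not. By direction, 1 of the 77 was higher without overlap (background 0.394%) and 1 lower (background 0.459%). Both genes had been singled out from these same data before, so these counts beside the background are a description. Without PBS tumor 3, Mrps10 and Mrpl58 joined Mrps34 on the lower side, and without PIIO-1 tumor 1, Mrps10 and Mrpl44 did, which made 4 genes in each case. Mrpl52, Mrps34 and Mrps10 kept an unadjusted p under 0.05 in all 20 alternative analyses, Mrpl44 in 14, Mrps21 in 11 and Mrpl58 in 8. None of the 6 passed after adjustment in any of them.

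The genes moved little from tumor to tumor, and partly together. The mean log2 deviation of the 77 genes from their own means over the 10 tumors was highest in PBS tumor 1 (0.076) and lowest in PIIO-1 tumor 5 (-0.053), a span of 1.09-fold. The second lowest was PBS tumor 4 (-0.052), so both groups held low tumors. Over the 2926 pairs of genes the median Pearson r across 10 tumors was 0.21, with 17.1% of pairs above 0.5 and 2.43% below -0.5. These correlations describe 10 tumors that also share library, depth and the split into groups, and no test was made of them.

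Against the mean of the other genes of the set, the median r was 0.46, and 35 genes exceeded 0.5. Mrpl17 (0.90), Mrps17 (0.87) and Mrps16 (0.85) followed the others most closely. Mrpl17 had 1851, 1746, 1737, 1578 and 1708 normalized counts in PBS tumors 1 to 5 and 1682, 1759, 1718, 1730.5 and 1580.0 in PIIO-1 tumors. Its extremes were thus the same tumors that were highest and among the lowest for the whole set. Mrpl33 stood at the other end (-0.40), with 1496, 1509.8, 1457, 1584 and 1395 in PBS tumors and 1541, 1367, 1444, 1521 and 1519 in PIIO-1 tumors. Its highest tumor was PBS tumor 4, one of the lowest for the set. In all, 7 genes had an r below 0, Mrpl52 (-0.017) among them, and Mrpl52 against Mrps34 gave -0.68. Mrpl52 and Mrps34 had been singled out with differences of opposite sign. Group means were not removed, so their r includes the split into groups.

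**Figure D3:**
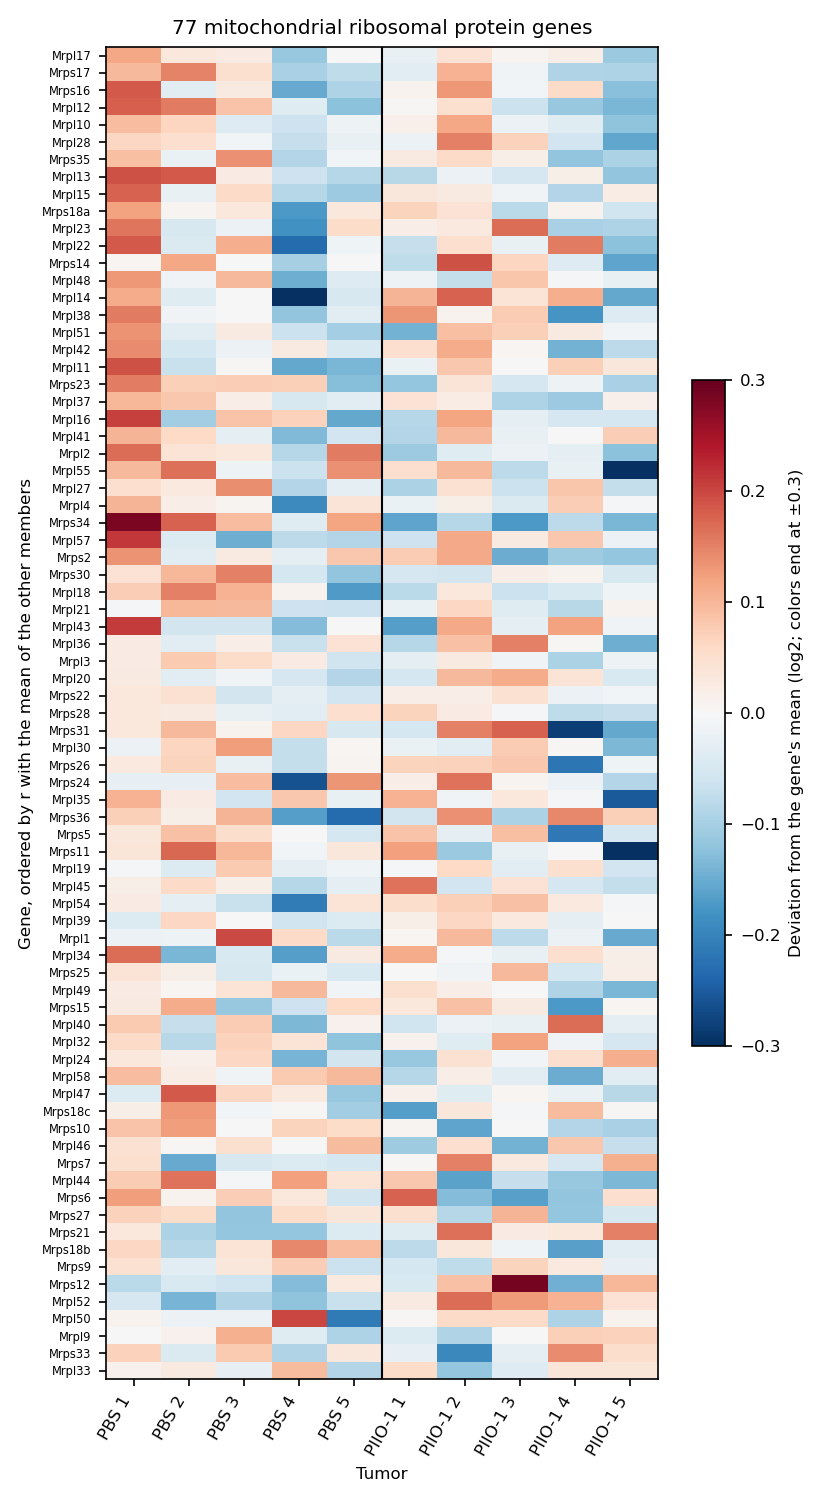
Deviation of each of the 77 genes (rows) from its own mean over 10 tumors (columns), in log2 units, with colors ending at 0.3 either way; rows run from the highest r with the mean of the other genes (Mrpl17, 0.90) to the lowest (Mrpl33, -0.40). PBS tumor 1 is red over much of the upper rows and PIIO-1 tumor 5 blue, while the lower rows, Mrpl52 included, do not follow that pattern.

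Levels between genes were compared as normalized counts per kilobase of exon, with the exons of all annotated isoforms merged, so a gene with long rare isoforms is understated. Exon bases shared with another gene, which 32 of the 77 genes had, were kept in the length. The median over the 77 genes was 351 normalized counts per kilobase. Mrpl52 (2170.0), Mrpl54 (1520) and Mrpl38 (1077) had the highest levels per kilobase, and Mrps30 (105), Mrpl47 (118) and Mrps35 (120) the lowest. For these 6 genes the differences between the groups were 0.19, 0.095, 0.0021, -0.048, -0.047 and -0.045 on the log2 scale, in the same order.

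**Figure D4:**
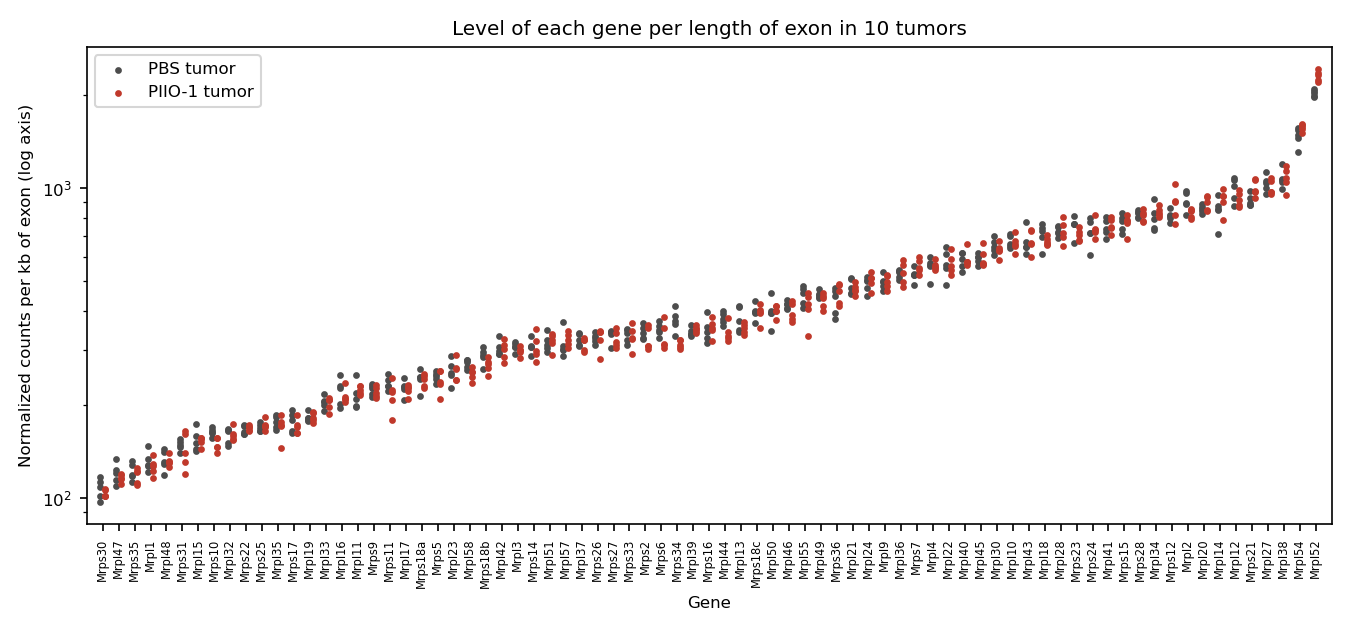
Normalized counts per kilobase of exon (log axis) in each of the 10 tumors for the 77 genes, ordered by their mean, with PBS tumors in gray and PIIO-1 tumors in red. Levels run from 105 (Mrps30) to 2170.0 (Mrpl52), and the 10 points of a gene lie close together beside that range.

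Short genes held most of the larger differences. The genes were split at their median exon length of 2533 bp, a split chosen after the data were seen. The median size of the difference, without its sign, was 0.063 in the shorter set and 0.026 in the longer, while the median standard errors were 0.062 and 0.060. Of the 10 genes with the smallest p on the higher side, 9 were shorter than the median, and of the 10 on the lower side, 7. The rank correlation of the signed difference with exon length was -0.23 over the 77 genes and -0.017 over 16636 tested genes with a length. It is given as a description across genes of the same libraries.

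The 77 genes lie on 17 chromosomes, with 11 of them on chromosome 11. Close neighbors did not all share a direction: Mrpl58, Mrps7 and Mrpl38 lie within 735 kb of chromosome 11 and had differences of -0.11, 0.097 and 0.0021. Mrps11 (chr7:78783119-78792989, plus strand) and Mrpl46 (chr7:78775236-78783531, minus strand) face each other and share 173 bp of exon. Their r over the 10 tumors was 0.17, and their differences were -0.13 and -0.075.

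The rest of mitochondrial translation was read from lists of 94 measured genes. At an unadjusted p under 0.05 in limma, 0 of the 94 were higher (background 2.86%) and 2 were lower (background 2.77%), and none passed after adjustment. Both were lost with no filter on low values and with the replicate number as a block, and leaving out 1 tumor gave counts from 1 to 4. Of the 6 mitochondrial ribosomal proteins and partners under other names, 2 had differences above 0 and the median was -0.031. Oxa1l, which inserts new proteins into the inner membrane, differed by -0.10 (SE 0.051), and Dap3, a GTP-binding protein of the small subunit, by 0.099 (SE 0.063). Of the 25 ribosome assembly genes measured, 4 lay above 0, where 51.1% of all tested genes did, and the median was -0.054. Once PIIO-1 tumor 5 was dropped the assembly median was -0.027, and once PIIO-1 tumor 2 was dropped, -0.066. Ybey, an endoribonuclease that acts on rRNA, had -0.27 (SE 0.12), and Malsu1 -0.13 (SE 0.072).

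The 14 translation factors had a median of -0.058 with 2 above 0. Dropping PIIO-1 tumor 5 made this median -0.023, and dropping PIIO-1 tumor 2 made it -0.067. The factors with the smallest p were the initiation factor Mtif3 (-0.17, SE 0.081) and Lrpprc (-0.067, SE 0.050), which stabilizes mitochondrial mRNAs. The 20 genes of aminoacyl-tRNA synthesis had a median of -0.055 with 6 above 0. Iars2, the mitochondrial isoleucyl-tRNA synthetase, had 3671, 3805, 3764, 3965 and 3739 normalized counts in PBS tumors and 3777, 3592, 3535, 3397 and 3406 in PIIO-1 tumors. Only PIIO-1 tumor 1 stood inside the PBS range. The difference of Iars2 was -0.098 (SE 0.042, unadjusted p 0.0405 in limma), and that of Qrsl1, a subunit of the amidotransferase that makes glutaminyl-tRNA, was -0.16 (SE 0.078).

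Among 14 regulators of mitochondrial transcription and biogenesis the median was -0.033 with 5 above 0. It was -0.010 after PIIO-1 tumor 5 was dropped and -0.064 after PIIO-1 tumor 2 was dropped. Ppargc1a, a coactivator of mitochondrial biogenesis, was scarce, at 35.3, 24.4, 21.2, 24.97 and 18.9 normalized counts in PBS tumors and 14.9, 22.5, 11.1, 16.9 and 19.1 in PIIO-1 tumors. The groups overlapped, with a difference of -0.54 (SE 0.24, unadjusted p 0.0450 in limma) that understates the change at such low values. Yy1, the factor whose motif was counted above, had a difference of 0.081 (SE 0.039, unadjusted p 0.0597 in limma). Ppargc1a and Iars2 were the 2 lower genes of the 94.

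All 13 mitochondrial mRNAs had differences above 0, with a median of 0.28 and none under an unadjusted p of 0.05; without PIIO-1 tumor 5 the median was 0.027. The smallest p belonged to mt-Nd3 (0.46, SE 0.28) and mt-Atp6 (0.47, SE 0.41). The rRNA mt-Rnr1 had 11213, 6132, 7992, 5281 and 5916 normalized counts in PBS tumors 1 to 5 and 4674, 6374, 9381, 10256 and 20861 in PIIO-1 tumors, and mt-Rnr2 had 11082, 7133, 8252, 5824 and 6675 against 6340.4, 7392, 11296, 10252 and 14546. The groups overlapped for both, with differences of 0.36 (SE 0.35) and 0.33 (SE 0.22). From the lowest to the highest tumor, the mean of the mitochondrial mRNAs spanned 3.42-fold and that of the rRNAs 3.20-fold, against 1.09-fold for the 77 ribosomal protein genes. Single genes ranged from 2.50-fold (mt-Rnr2) to 8.43-fold (mt-Atp8) between tumors. The range of mt-Atp8 rests on few reads, with 3.12 normalized counts in PBS tumor 4 and 26.3 in PIIO-1 tumor 5. In PBS tumor 4, 3 reads are worth 4.68 normalized counts. A few nuclear genes of the lists also ranged by more than 2.50-fold: Ppargc1a, scarce as well, by 3.20-fold and Lars2, the mitochondrial leucyl-tRNA synthetase, by 3.93-fold. For Lars2 this was 1 tumor, PIIO-1 tumor 3 at 9158 normalized counts, while the other tumors lay between 2333 and 4058; Lars2 was named after its values were seen. PIIO-1 tumor 5 was highest for both kinds of mitochondrial RNA and lowest for the 77 genes, while PBS tumor 1 was high for all 3. How far blood, handling or RNA quality moved these RNAs was not tested.

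**Figure D5:**
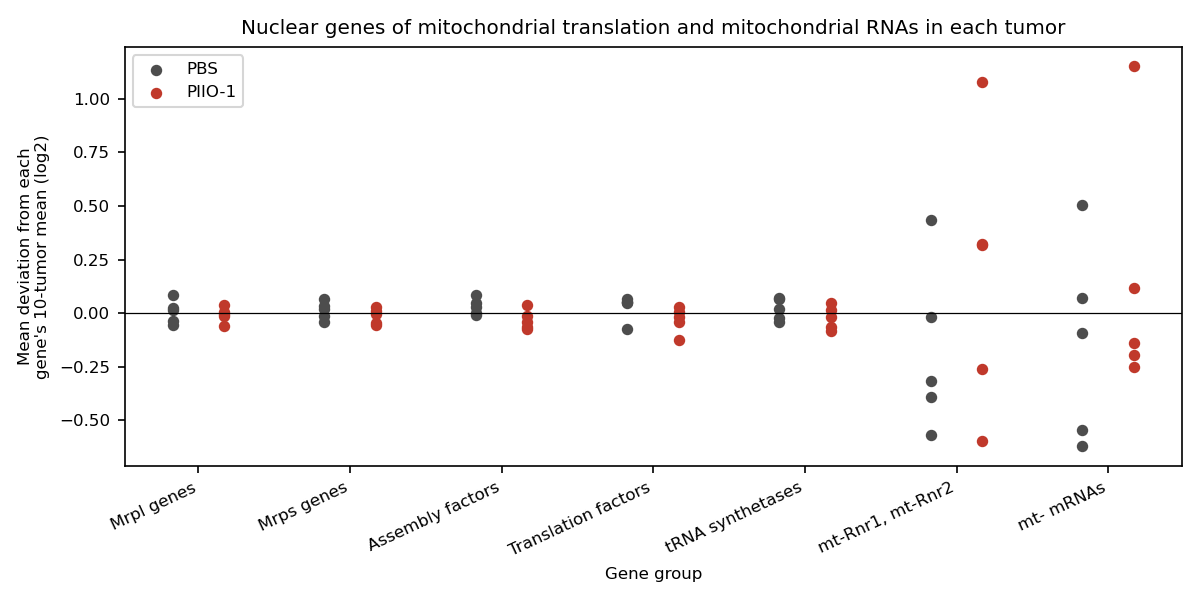
Mean log2 deviation of 7 gene groups from their own means over the 10 tumors, 1 point per tumor, PBS in gray and PIIO-1 in red. The means of the nuclear groups stay within a narrow band around 0, while the mitochondrial mRNAs run from -0.62 (PBS tumor 5) to 1.15 (PIIO-1 tumor 5).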

How the data were processed

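RNA from 10 whole MB-49 tumors was measured by bulk RNA-seq, 5 labelled PIIO-1 and 5 labelled PBS. The treatment label set the group and the title the replicate number. Titles and deposited columns carry the name a4D3 for the PIIO-1 tumors, with the same replicate numbers. The authors deposited 1 table of normalized counts, a signal with no values below 0. The submitters' processing notes name HISAT2, featureCounts, DESeq2 and build GRCm38. Tool versions and how strand was handled: not given in the sources used here. Dividing each deposited column by its smallest step gave whole reads for 100.0% of values, within 0.001 read, in all 10 columns. An automatic check of that recovery did not accept 2 PIIO-1 columns (tumors 1 and 3), whose steps lie close to 1; recovered reads were used for library totals, TMM scaling, edgeR and DESeq2, and not in the main test. In these libraries 3 reads are worth 2.45 to 4.68 normalized counts.

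The 16767 genes whose mean reached 10 normalized counts were compared between PIIO-1 and PBS as log2(value + 1) by limma 3.58.1 (R 4.3.3; intensity trend, two-sided). P-values were adjusted over all of them by Benjamini-Hochberg, with a threshold of 0.05. Differences are on that log2 scale. The step was also run on simulated counts, with an outcome that is not reported here. All changes simulated there were larger than the differences of the 77 genes, so recovery of differences this small was not tested. The genes named were Mrpl52 and Mrps34, the 10 members of smallest p on either side, the 3 highest and 3 lowest per kilobase, and from each pathway list the 2 genes of smallest p; others were chosen after their values were seen. The members and lists were chosen with earlier results of these data known. Coordinates, exon lengths and overlaps come from GENCODE M21 (GRCm38), where 23960 symbols (99.0%) matched 1 gene, all 77 members among them.

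The comparison was repeated with the replicate number as a block, with each tumor left out, with TMM scaling, with a pseudocount of 0.5 and of 5, without the filter and with a minimum mean of 50, without the trend, with array weights, and with edgeR 4.0.16 and DESeq2 1.42.0 on the recovered reads. DESeq2 was first run with its own filter, which called 1 gene and gave no adjusted p for 8452 genes, 15 of the 77 members among them. After that count was seen, the filter was turned off so that p-values were adjusted over the same genes as in limma. Neither run called a member; the adjusted p with the filter was 0.0829 for Mrpl52 and 0.128 for Mrps34.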

Additional observations from a re-analysis of the deposited data

How the results depend on the processing

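No member passed after adjustment in any of the 20 alternatives (smallest adjusted p 0.119, Mrpl52 in DESeq2), and none of the 20 members named for their p (10 on either side) changed the sign of its difference; the other members were not followed one by one. Deviations from the group means gave no sign that replicate numbers paired the tumors (correlations -0.21 to 0.095 over the 5 numbers). Such correlations cannot show whether tumors of the same number were handled together. With the number as a replicate block, 3 members had an unadjusted p under 0.05 in limma in place of 6. The other settings gave 5 to 7. With 1 tumor left out the count ran from 3 (PBS tumor 2 or PIIO-1 tumor 5 left out) to 7, and that of members whose groups did not overlap from 2 to 4 (PBS tumor 3 or PIIO-1 tumor 1 left out). Of the 94 pathway genes, 2 had an unadjusted p under 0.05 in the main analysis, 0 with no filter or with the replicate block, 1 with a minimum mean of 50 or with array weights, and 1 (PBS tumor 2, PBS tumor 4 or PIIO-1 tumor 3 left out) to 4 (PBS tumor 5 or PIIO-1 tumor 1 left out); the cause was not tested. Members with an interval within 1.25-fold numbered 72 to 76. Each member had at least 270.0 reads in every tumor, and with 5 tumors per group the precision of a difference is that of the intervals given.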
